A study of Mus musculus with 4 samples.

Results

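The mouse genome carries a large family of Zfp genes, and 158 protein-coding members with a symbol of Zfp plus a number on chromosomes 7, 13 and 17 were taken from the 23552 genes of the table. The rule used the symbol and the chromosome and no expression value, although it was chosen with earlier results of these data known. Chromosome 7 held 87 members, chromosome 13 held 30 and chromosome 17 held 41, and 189 further Zfp genes lay on other chromosomes. Gene expression had been measured by RNA-Seq in c-Kit+ leukemic cells enriched from the bone marrow of moribund mice with AML induced by the fusion gene MLL-AF9 (MA9). Control cells carried eGFP overexpression (libraries control 3 and control 4) and SUV-OE cells carried Suv39h1-eGFP overexpression (libraries SUV-OE 2 and SUV-OE 3), so that both groups had the MLL-AF9 background, the reporter and the C57BL/6 strain, and the comparison asked which transcripts differed with Suv39h1. Per the study's methods, Suv39h1 was expressed from an MSCV-IRES-EGFP vector in serially transplanted MA9 cells, sorted EGFP+ cells were transplanted into sub-lethally irradiated recipients, and female C57BL/6J mice of 8 weeks were used. Nothing in the sources states whether each library came from 1 mouse or from pooled mice, so the spread between libraries may be partly technical.

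Most proteins of this family carry tandem C2H2 zinc fingers, each of which reads a few bases of DNA, and many also carry a KRAB domain in front of the fingers. KRAB zinc finger proteins bring the corepressor TRIM28 to DNA, and TRIM28 recruits the H3K9 methyltransferase SETDB1 and HP1 proteins, which silences retroelements and some genes. SUV39H1 is another H3K9 methyltransferase, best known from pericentric heterochromatin, and KRAB zinc finger gene clusters are themselves known to be rich in H3K9me3 and HP1.

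In the annotated transcripts, a stretch like the KRAB A box was found in 114 of the 158 members, and a stretch like a SCAN domain, which pairs such proteins, in 5 (Zfp110, Zfp213, Zfp369, Zfp444 and Zfp446). The median member had 11.5 C2H2 fingers, with a range of 0 to 33. The member with 0 fingers of this type was Zfp36 (tristetraprolin), an RNA-binding CCCH protein that shares the symbol and not the fold. In all, 111 members lay in 13 clusters, which were defined as at least 3 members with gaps of at most 200 kb.

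The promoters of 142 members were present in the RefSeq sequences used here (GRCm38.p6), with 250 bases before and 50 after the annotated start. The RefSeq start nearest to the GENCODE M21 gene start was taken. It lay far from that start in some members, as in Zfp935 (91699 bases) and Zfp111 (3294 bases). The member promoters were poor in CpG, with a median of 12 CpG dinucleotides against 19 in the promoters of 12349 protein-coding genes. KRAB-like members had a median of 10 and the other members 19. The GC box GGGCGG occurred on either strand in 38.7% of member promoters and in 59.3% of all promoters, and the CCAAT box CCAAT in 46.5% against 38.2%. The ZNF143-type element ACTACAATT occurred in 6 of 142 member promoters (4.23%), those of Zfp58, Zfp93, Zfp108, Zfp111, Zfp128 and Zfp180, against 0.672% of all promoters. The ETS-type element CCGGAAGT occurred in 11.3% against 7.18%, and the NRF1-type element CGCATGCGC in 6.34% against 3.22%. The factor known to bind the ZNF143-type element is itself the product of a member, Zfp143. A match describes letters in a window and does not establish a bound site.

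The promoters below were chosen after the values were seen. They belong to Zfp658, Zfp760, Zfp109 and Zfp799, 4 KRAB-like members with positive differences described next, and to Zfp110 and Zfp180, which had negative ones, so that their composition can be read beside the values. Capitals mark a match on either strand to one of the elements named above, to a TATA box or to an E2F-type element. The letters searched for the TATA box were TATAAA (6.34% of member promoters, 8.18% of all). Those of the E2F-type element were TTCCCGCC (2.11% and 3.81%). The GC box and the E2F-type match of Zfp760 overlap.
Zfp658 (higher in SUV-OE, chr7:43562120-43562419, + strand): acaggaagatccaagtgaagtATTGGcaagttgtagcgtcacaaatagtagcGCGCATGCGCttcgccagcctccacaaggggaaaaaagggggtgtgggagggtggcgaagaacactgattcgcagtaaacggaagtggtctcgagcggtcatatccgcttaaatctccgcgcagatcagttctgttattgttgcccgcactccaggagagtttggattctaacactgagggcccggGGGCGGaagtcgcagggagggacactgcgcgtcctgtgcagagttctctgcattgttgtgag
Zfp760 (higher, chr17:21707491-21707790, + strand): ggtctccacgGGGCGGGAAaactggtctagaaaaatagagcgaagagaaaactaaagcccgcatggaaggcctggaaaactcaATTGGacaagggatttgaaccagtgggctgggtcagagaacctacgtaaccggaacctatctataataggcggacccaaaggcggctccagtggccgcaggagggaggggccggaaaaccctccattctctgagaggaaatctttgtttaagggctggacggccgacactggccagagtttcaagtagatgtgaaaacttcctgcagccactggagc
Zfp109 (higher, chr7:24237549-24237848, - strand): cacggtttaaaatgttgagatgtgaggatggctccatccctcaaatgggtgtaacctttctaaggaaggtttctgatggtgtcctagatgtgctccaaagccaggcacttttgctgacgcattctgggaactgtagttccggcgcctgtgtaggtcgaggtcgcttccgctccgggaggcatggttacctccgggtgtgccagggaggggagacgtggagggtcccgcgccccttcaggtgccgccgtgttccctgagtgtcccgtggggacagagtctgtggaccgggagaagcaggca
Zfp799 (higher, chr17:32830212-32830511, - strand): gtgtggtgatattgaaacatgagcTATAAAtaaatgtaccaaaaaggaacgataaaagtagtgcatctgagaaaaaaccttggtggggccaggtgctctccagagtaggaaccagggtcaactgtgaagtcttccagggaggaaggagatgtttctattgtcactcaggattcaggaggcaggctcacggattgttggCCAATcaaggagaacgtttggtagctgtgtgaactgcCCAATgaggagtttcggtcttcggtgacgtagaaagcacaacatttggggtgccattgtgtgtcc
Zfp110 (lower, chr7:12834511-12834810, + strand): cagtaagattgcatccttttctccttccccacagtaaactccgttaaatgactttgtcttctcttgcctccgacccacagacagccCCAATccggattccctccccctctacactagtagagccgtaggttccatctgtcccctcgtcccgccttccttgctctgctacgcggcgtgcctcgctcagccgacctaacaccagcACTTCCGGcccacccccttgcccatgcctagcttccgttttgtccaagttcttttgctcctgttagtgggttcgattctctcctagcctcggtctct
Zfp180 (lower, no KRAB-like stretch found, chr7:24081647-24081946, + strand): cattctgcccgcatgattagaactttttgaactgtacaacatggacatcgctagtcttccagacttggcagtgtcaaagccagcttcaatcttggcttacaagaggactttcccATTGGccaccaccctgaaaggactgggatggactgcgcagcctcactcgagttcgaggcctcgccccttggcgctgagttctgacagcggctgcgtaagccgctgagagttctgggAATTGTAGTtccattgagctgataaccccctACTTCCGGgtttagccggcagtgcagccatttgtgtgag
The promoter of Zfp109 held no exact match to the motifs searched. Zfp180 was the only one of these 6 with the exact letters of the ZNF143-type element, and near matches were not searched. The 4 promoters of genes higher in SUV-OE did not share 1 motif among them.

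The FPKM values step in whole reads, which gave 20146055 to 23642320 reads per library, at which 3 reads on a gene of 1 kb correspond to 0.154 to 0.178 FPKM. Suv39h1 itself was measured at 12.4 (control 3) and 12.4 (control 4) FPKM against 75.3 and 81.2 FPKM with SUV-OE. A moderated test (limma) on log2(FPKM + 1) covered the 13736 genes that reached a mean of 0.5 FPKM, and 168 of them (1.22%) were DEGs, which required adjusted p below 0.05 and a log2 fold change of 1 or more in size. The 12 marker genes of the c-Kit+ myeloid leukemic cells were all detected, with Kit at 19.2 to 28.6 FPKM. Their summed FPKM was lower in SUV-OE, at 5338 and 5987 in control 3 and control 4 against 3915 and 4713, with 5 of the 12 below and 4 above both controls. Markers of other cells were not equal between the groups either. The summed FPKM of 9 late neutrophil markers was 754 and 2391 in control 3 and control 4 and 6656 and 8103 in SUV-OE 2 and SUV-OE 3, with 9 of 9 above both controls. The sum of 14 B-lymphoid markers was 22.6 and 31.3 in control against 47.5 and 107.9 in SUV-OE, with 11 of 13 tested ones above. That of 11 erythroid markers overlapped, at 24.1 and 147 against 153 and 124, although 11 of 11 had a positive fold change. Sums of 5 megakaryocyte markers (6.57 and 12.8 against 23.5 and 27.9), 6 endothelial markers (17.1 and 24.1 against 72.1 and 65.5, with 1 of them tested) and 8 macrophage markers (135 and 162 against 177 and 175) were higher in both SUV-OE libraries. The sum of 10 T and NK markers (2.83 and 3.47 against 3.23 and 3.29) overlapped. No marker was at 0 in all libraries. In bulk RNA fewer cells of a type and less RNA per cell cannot be told apart, and the part of these cells in the Zfp values was not tested.

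The Zfp genes were expressed at low levels in these cells. A total of 137 members passed the expression minimum, with a median of their mean FPKM of 2.76 against 6.75 for all tested genes, and 12 members exceeded a mean of 10. The 99 tested KRAB-like members had a median of 2.41 and the 38 others 5.71. The other 21 members had mean FPKM values of at most 0.470 and a median of 8.25 recovered reads, and were not tested.

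None of the 137 tested members was a DEG by limma, and 0.815% and 0.408% of all tested genes were DEGs with higher and lower expression. At an unadjusted p-value under 0.05, 16 members were higher and 2 were lower in SUV-OE, where 10.3% and 10.4% of all tested genes were, so that 16 of 137 lay near the background and 2 of 137 below it. The signs of the differences were nevertheless unequal. The fold change was above 0 in 92 members, 67.2%, against 47.0% of all tested genes. In 55 members, 40.1%, both SUV-OE values exceeded both control values, against 25.4% of all tested genes, and in 14 members, 10.2%, both lay under both, against 28.4%. The median log2 fold change was 0.11 in the members and -0.02 over all tested genes. With quantile normalization the contrast was smaller, with a member median of 0.034 against -0.02 and with 37 members, 27.0%, above both controls against 24.3% of all tested genes. No test of the list was made, and these counts rest on 2 libraries per group.

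Genes of a similar level leaned the same way, to a lesser degree. Among the 3171 genes whose mean FPKM fell within the middle 50% of the members' range, 57.2% were higher in SUV-OE, 33.4% lay above both controls and 20.97% below both, with a median log2 fold change of 0.06. The 1767 other protein-coding genes tested on chromosomes 7, 13 and 17 had a median of -0.04, with 44.8% higher.

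Of the 92 members with a positive fold change 73 were KRAB-like, and so were 99 of all 137 tested members. The difference between the classes was not tested. The median of the 99 tested KRAB-like members was 0.16. Of them 73 (73.7%) had a positive fold change, and 46 (46.5%) lay above and 7 (7.07%) below both controls, beside 47.0%, 25.4% and 28.4% of all tested genes. These counts moved with the processing. With quantile normalization 29 KRAB-like members lay above, near the 24.3% of all tested genes that did, and 16 below (27.0% of all genes), and the median was 0.042. Without control 3 the counts were 51 above (38.8% of all genes) and 31 below (43.4%), and without control 4 they were 79 (40.3%) and 9 (43.7%). Of the 38 without a KRAB-like stretch, 19 had a positive fold change, and the median was 0.01. Of them 9 (23.7%) lay above and 7 (18.4%) below, beside 25.4% and 28.4% of all tested genes. Without control 3, 70 of all 137 members lay above, 51 of them KRAB-like, and 41 below, 31 of them KRAB-like. The share above was then similar in both classes. Without control 4, 90 members lay above, 79 of them KRAB-like, and 30 below, 9 of them KRAB-like, so the classes stood further apart. On chromosome 7 the median of KRAB-like members was 0.14, on chromosome 13 it was 0.19 (21 of 23 positive) and on chromosome 17 it was 0.14.

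**Figure D1:**
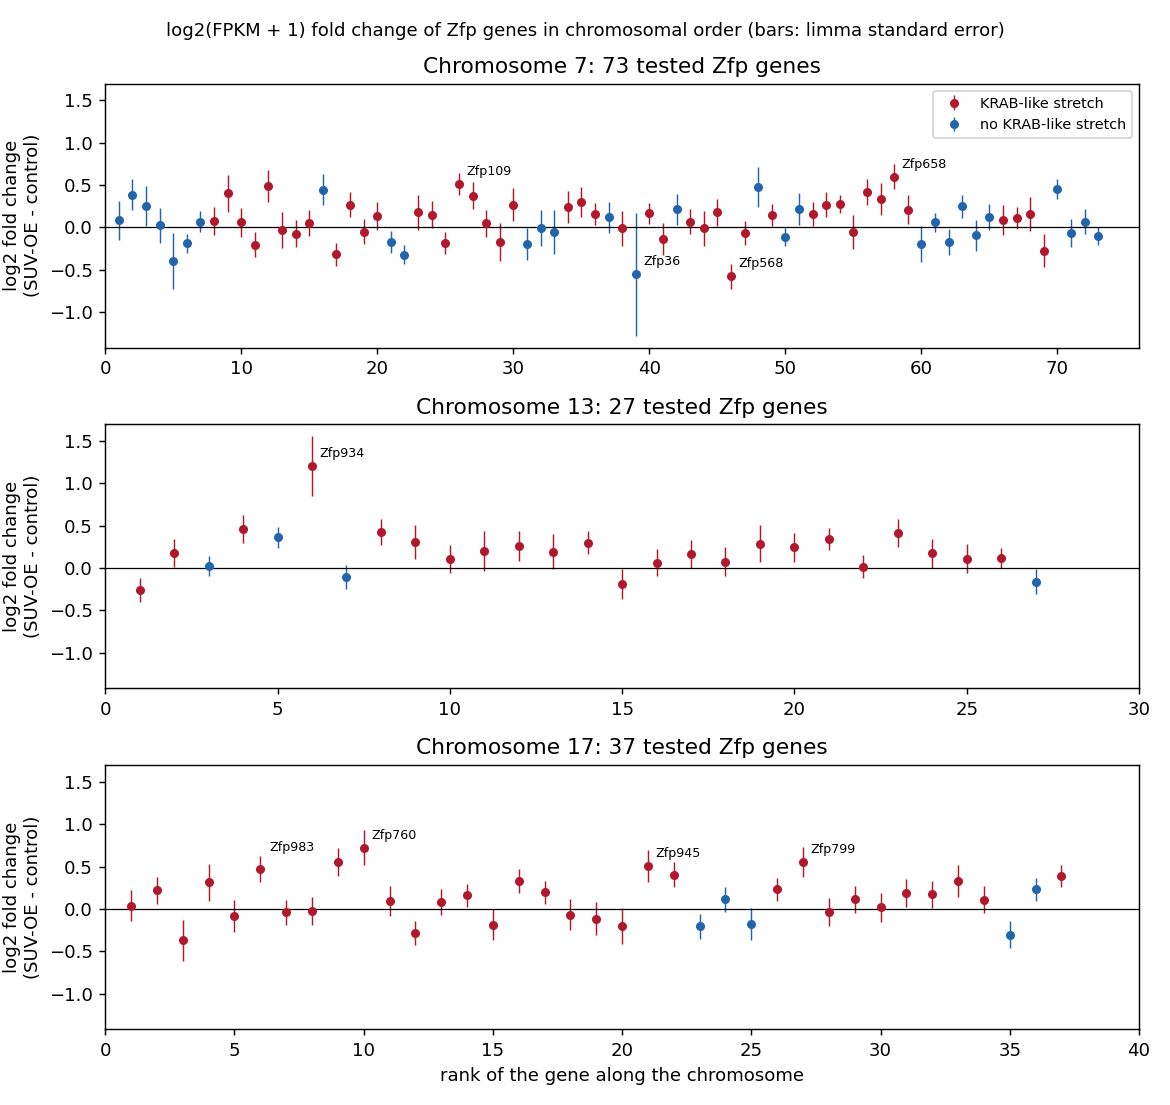
log2 fold change of each tested Zfp gene (y axis, SUV-OE minus control on the log2(FPKM + 1) scale, with the limma standard error) against its rank along chromosomes 7, 13 and 17 (x axis). Red points have a KRAB-like stretch and blue points do not. Zfp934 on chromosome 13 stands highest at 1.21, Zfp568 on chromosome 7 lowest at -0.58, and 23 of 27 points on chromosome 13 lie above 0.

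**Figure D2:**
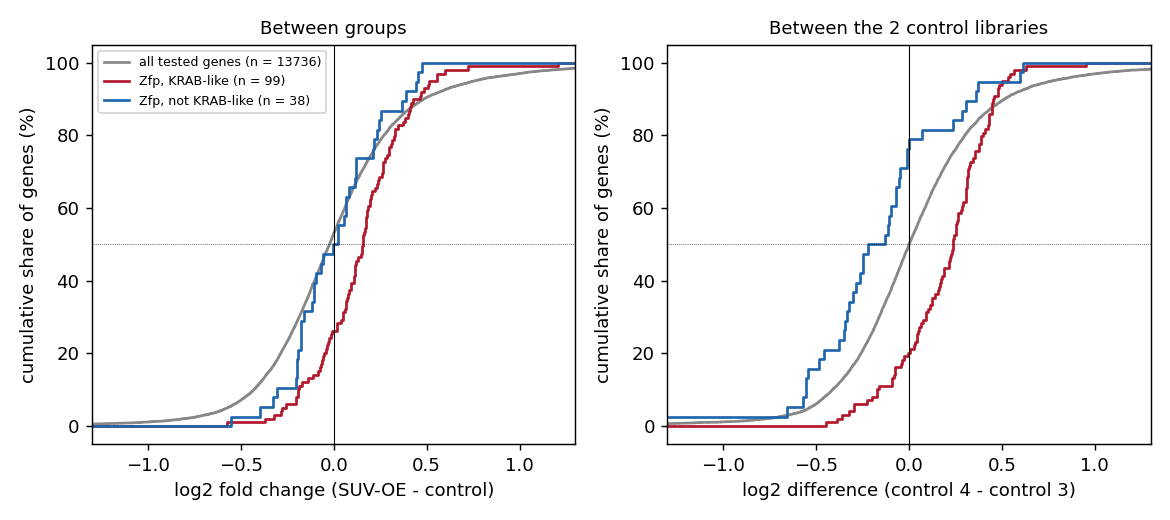
Cumulative share of genes (y axis, percent) by log2 fold change between the groups (left) and by the log2 difference between the control libraries (right), for all 13736 tested genes in grey, 99 KRAB-like members in red and 38 other members in blue. The right panel leaves out Zfp36, which lies beyond the axis. Between groups the red curve lies to the right of the grey one (medians 0.16 and -0.02), and between the control libraries it lies further to the right (median 0.24) while the blue curve lies to the left (median -0.18).

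In the KRAB-like members as a whole the median difference between the control libraries (0.24) was larger than that between the groups (0.16). By chromosome these medians in KRAB-like members were 0.16 between controls and 0.14 between groups on chromosome 7, 0.19 in both on chromosome 13, and 0.31 and 0.14 on chromosome 17. Control 4 was higher than control 3 in 79 of 99 KRAB-like members and in 9 of 38 other members, with a median of -0.18. Over all tested genes this share was 49.9%. The SUV-OE libraries differed less, with a median of SUV-OE 3 minus SUV-OE 2 of -0.01 in KRAB-like members. The counts therefore depended on which control library was used. Both SUV-OE libraries lay above control 3 in 90 of 137 members (40.3% of all tested genes) and below it in 30 (43.7%), but above control 4 in 70 (38.8%) and below it in 41 (43.4%). Compared with control 4 alone, the median was 0.05 in KRAB-like members and 0.09 in the others, so that the order of the classes turned. Control 4 also stood between control 3 and the SUV-OE libraries in the late neutrophil marker sum above.

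Base composition moved with the difference between the control libraries. The median GC content of the longest transcript was 40.5% in tested KRAB-like members, 52.8% in the other members and 49.4% in all tested genes with an annotated transcript. In the lowest 20% of all genes by GC content (up to 43.6%), control 4 minus control 3 had a median of 0.15, and in the highest 20% (from 55.2%) it was -0.18. The 67 KRAB-like members in that lowest set had a median of 0.29. The difference between groups followed GC content less. Its median over all genes was 0.02 in the lowest set, with 52.5% higher, and -0.05 in the highest set, with 44.1% higher. In the lowest set, 54 of 67 KRAB-like members were higher in SUV-OE, with a median of 0.19, and so were 5 of the 6 members without a KRAB-like stretch, with a median of 0.29. In the next 20% by GC content (up to 47.5%) the median was 0.05 in 15 KRAB-like members, with 8 higher, and -0.14 in 4 others, with 1 higher. In the third set (up to 51.2%) the median was 0.14 in 10 KRAB-like members, with 7 higher, and -0.11 in 4 others, with 1 higher, and in the fourth (up to 55.2%) it was 0.09 in 7 KRAB-like members, with 4 higher, and 0.04 in 8 others, with 5 higher. The highest set held no KRAB-like member, and 7 of its 16 members without a KRAB-like stretch were higher, with a median of -0.03. The part of GC content in the members' differences was not tested beyond these values.

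Zfp934 (ENSMUSG00000074865, chromosome 13, 62479827 to 62571199), a KRAB-like gene with 11 fingers, was measured at 1.20 (control 3) and 3.26 (control 4) FPKM against 5.24 and 6.98 FPKM with SUV-OE. The groups did not overlap, although control 4 was nearer to SUV-OE 2 than to control 3 in proportion. Its mean FPKM was 2.74 times that of control, and the log2 fold change was 1.21 (SE 0.35, adjusted p = 0.166 by limma), or 0.73 without control 3. Its neighbours on the same stretch of chromosome 13, Zfp808 and Zfp935, had log2 fold changes of 0.47 and 0.37. These neighbours are near copies in part. Zfp934 shared 14.1% of its 100-base words with other genes, Zfp808 first among them, and Zfp935 shared 99.3%, mostly with Gm49359, so reads cannot be assigned to each with confidence.

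Zfp760 (ENSMUSG00000067928, chromosome 17, 21707741 to 21725636), with 16 fingers, shared no such words with another gene. It was measured at 1.246 and 1.77 FPKM in control against 3.71 and 2.59 with SUV-OE, without overlap, and its log2 fold change was 0.72 (SE 0.21, adjusted p = 0.164 by limma). Zfp983, a KRAB-like member of the same cluster, had 1.598 and 2.23 FPKM in control against 3.10 and 3.42 in SUV-OE. Both SUV-OE values again exceeded both controls, with a log2 fold change of 0.55 (SE 0.17, adjusted p = 0.174 by limma).

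Zfp658 (ENSMUSG00000056592, chromosome 7, 43562256 to 43575461), with 21 fingers, had close replicates in both groups. It stood at 0.897 and 0.780 FPKM in control, from 61 and 46 reads, and at 1.74 and 1.82 in SUV-OE, from 108 and 113 reads. The mean was 2.12 times that of control, and the log2 fold change was 0.60 (SE 0.15, adjusted p = 0.139 by limma). Here control 4 was the lower of the controls, so the difference from it was not smaller than that from control 3. The same held for Zfp109 (ENSMUSG00000074283, chromosome 7, 24227572 to 24237560), with 12 fingers, at 2.82 and 2.59 FPKM in control against 4.44 and 4.12 with SUV-OE. The log2 fold change of Zfp109 was 0.51 (SE 0.13, adjusted p = 0.139 by limma). Zfp629, a gene with 19 fingers and no KRAB-like stretch, had nearly equal controls of 2.62 and 2.59 FPKM and SUV-OE values of 4.03 and 3.84, with a log2 fold change of 0.45 (SE 0.12, adjusted p = 0.155 by limma).

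Zfp799 on chromosome 17 (0.983 and 1.51 FPKM in control, 2.43 and 2.14 in SUV-OE) had a log2 fold change of 0.56 (SE 0.18, adjusted p = 0.193 by limma), but its exons overlap Gm26693 on the opposite strand, and these libraries do not separate strands. The other members among the 12 largest positive differences without overlap were Zfp945, Zfp773, Zfp260, Zfp53 and Zfp808, with log2 fold changes of 0.47 to 0.51. Without control 3 all of these differences were smaller, at 0.17 in Zfp260, 0.26 in Zfp773, 0.31 in Zfp53 and Zfp808 and 0.39 in Zfp945. Zfp53 was the most highly expressed of them, at 6.32 and 8.21 FPKM in control against 9.99 and 10.8 with SUV-OE. In Zfp260, known as a transcriptional activator in the heart, the value of control 4 (4.18) lay close to that of SUV-OE 2 (4.49), whereas control 3 stood at 2.38.

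Zfp568 (ENSMUSG00000074221, chromosome 7, 29983955 to 30028282) went the other way. This KRAB zinc finger gene, known for silencing a placental promoter of Igf2, was measured at 13.4 (control 3) and 10.6 (control 4) FPKM against 7.62 and 7.69 FPKM with SUV-OE, from 995 to 1921 reads per library. Both SUV-OE libraries lay well below both controls and close to each other. Its mean was 0.639 times that of control, and the log2 fold change was -0.58 (SE 0.15, adjusted p = 0.142 by limma). It shared no 100-base word with another gene. Within its cluster, which spans 29768552 to 30169750 on chromosome 7 and holds 15 members, the median of the 11 tested was 0.07. Of these, 5 (45.5%) lay above both controls and 2 (18.2%) below, beside 25.4% and 28.4% of all tested genes. The other one below was Zfp146, a protein made almost entirely of fingers, which stood at 24.1 and 24.1 FPKM in control against 22.1 and 22.2 with SUV-OE, a log2 fold change of -0.12.

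Zfp180, with 12 fingers, had 9.69 and 9.20 FPKM in control against 7.12 and 7.55 with SUV-OE, with a log2 fold change of -0.33 (SE 0.11, adjusted p = 0.208 by limma). Zfp110, which encodes a SCAN and KRAB-like protein known to bind the p75 neurotrophin receptor, was among the most highly expressed members at 25.1 and 29.8 FPKM in control, and its values in SUV-OE were 20.9 and 22.5. Its log2 fold change was -0.32 (SE 0.13, adjusted p = 0.269 by limma). Its relative Zfp369, which encodes the other known receptor-interacting factor of this type, lay on the other side, at 3.78 and 3.53 FPKM in control against 5.91 and 4.66 with SUV-OE, with a log2 fold change of 0.43 (SE 0.15, adjusted p = 0.216 by limma). The remaining members among the 12 largest negative differences without overlap were Zfp414, Zfp820, Zfp689, Zfp184, Zfp213, Zfp456, Zfp787, Zfp111 and Zfp296, with log2 fold changes of -0.31 to -0.17. Without control 3 those of Zfp414, Zfp296 and Zfp689 were -0.17, -0.11 and -0.10, and without control 4 that of Zfp456 was -0.06. Zfp414 shared 42.0% of its words, mainly with Gm20507.

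**Figure D3:**
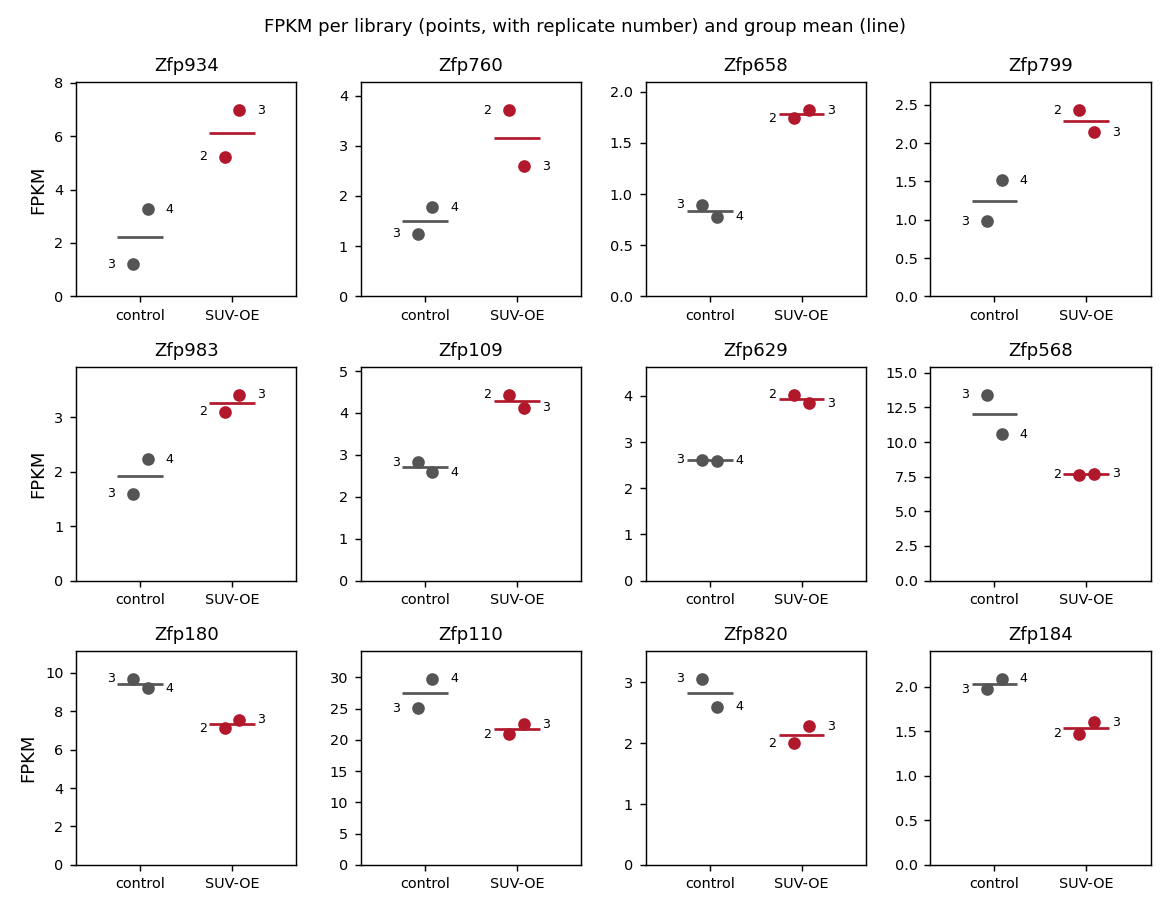
FPKM of 12 Zfp genes (y axes, each starting at 0) in the control and SUV-OE libraries (x axis), with 1 point per library marked by its replicate number and a line at the group mean. In each panel the groups do not overlap. In Zfp934 control 4 lies well above control 3 (3.26 and 1.20), and in Zfp658, Zfp109 and Zfp629 the controls are close together.

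The most highly expressed member was Zfp36, a destabiliser of AU-rich mRNAs. It had 83.6 and 19.9 FPKM in control against 19.6 and 38.8 with SUV-OE, which overlapped and spread more within control than between groups. Its fold change on the log2 scale was -0.55 (SE 0.73, adjusted p = 0.700 by limma), and it was 0.46 without control 3. Zfp598, the ubiquitin ligase of collided ribosomes, and the BTB zinc finger gene Zfp131 also overlapped, with log2 fold changes of 0.11 and -0.16. Zfp511 had 16.9 and 16.1 FPKM in control against 15.5 and 14.98 with SUV-OE, a log2 fold change of -0.11. Of members with a known role elsewhere, Zfp318, needed for IgD expression in B cells, lay above both controls with a log2 fold change of 0.23, and Zfp382, a KRAB repressor, also lay above with 0.15. The double-stranded RNA-binding Zfp346 (0.02), Zfp367 (-0.11) and Zfp455 (0.20) overlapped between the groups.

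Several members with well known tasks were near the limit of detection. Zfp57, which protects methylation at imprinted loci, was measured at 0.041 (control 3) and 0.078 (control 4) FPKM against 0.238 and 0.134 FPKM with SUV-OE. Zfp366, a dendritic cell factor, was at 0 in both controls and at 0.082 and 0.041 in SUV-OE. Zfp30, Zfp473 (a histone mRNA processing factor) and Zfp541 (a meiotic germ cell factor) had at most 0.224 FPKM in any library. These genes did not reach the expression minimum, and no difference was tested in them.

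By cluster, the largest sets were 18 members at 67038596 to 67827002 on chromosome 13, which include the regulators of sex-limitation, and 18 members at 21383748 to 22456689 on chromosome 17. All 36 are KRAB-like. In the chromosome 13 cluster 15 of 16 tested members had a positive fold change, with a median of 0.20, a range of -0.19 to 0.41 and 6 (37.5%) above both controls, where 25.4% of all tested genes lay above and 28.4% below. The member below both controls was Zfp456. In the chromosome 17 cluster 9 of 18 were positive, the median was 0.03 and the range was wider, from -0.37 (Zfp677) to 0.72 (Zfp760), with 7 above and 1 below. The control libraries differed in both, with control 4 higher in 15 of 16 and 16 of 18 members. The median of the other clusters ranged from -0.05 to 0.40, and the 38 tested members outside clusters had a median of 0.09. In the chromosome 7 cluster at 127233061 to 127615797, in which control 4 was higher in 1 of 8 members, the median between groups was 0.12, with 3 above and 1 below both controls.

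The proteins that act with KRAB zinc finger proteins were expressed far above them, with a median of their mean FPKM of 24.3 for 38 listed corepressor genes. None of the 38 was a DEG, and 14 had a positive fold change, with a median of -0.10. Of them 8 (21.1%) lay above and 13 (34.2%) below both controls, beside 25.4% and 28.4% of all tested genes. Trim28 had 119 and 84.9 FPKM in control against 95.5 and 91.1 with SUV-OE, which overlapped, and Setdb1 had 10.6 and 11.4 against 12.7 and 11.8, a log2 fold change of 0.14. The largest difference in the list was in Atf7ip, the partner that stabilises SETDB1, at 5.90 and 5.13 FPKM in control against 10.5 and 9.45 with SUV-OE (log2 fold change 0.75, SE 0.13, adjusted p = 0.0796 by limma). Atf7ip was chosen for mention after its values were seen. Suv39h2, the paralog of Suv39h1, had a log2 fold change of -0.22.

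The Zfp genes of other chromosomes were described in the same way. Of 137 tested, 91 (66.4%) had a positive fold change, 45 (32.8%) lay above and 18 (13.1%) below both controls, beside 47.0%, 25.4% and 28.4% of all tested genes. Their median was 0.08, with 0.10 in their KRAB-like members and 0.06 in the rest. Of these genes 2 were DEGs, Zfp971 on chromosome 2, which an antisense gene overlaps, and Zfp951 on chromosome 5. Zfp951 stood at 0.652 and 0.902 FPKM in control against 4.18 and 4.22 with SUV-OE. The 25 tested on chromosomes 2 and 4, which also hold large clusters, had a median of 0.09. The difference between these lists and the members was not tested.

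On the scale of recovered reads, without a pseudocount of 1 FPKM, the differences of low genes were larger, as in Zfp658 (log2 fold change 1.08 against 0.60). With limma-voom on the recovered reads, 0 members were DEGs, although 3.58% and 1.1% of all tested genes were DEGs with higher and lower expression. At an adjusted p-value under 0.1 it marked 8 members (12.2% of all genes), Zfp493, Zfp568, Zfp629, Zfp658, Zfp760, Zfp799, Zfp934 and Zfp983, and limma on FPKM marked 0 (4.85%). Scaled to total reads, which moved the median of all genes from -0.01 to 0.08, limma-voom called Zfp934 (log2 fold change 1.73, adjusted p = 0.0403) and Zfp658 (1.17, adjusted p = 0.0456). Its DEGs were then 4.44% (higher) and 0.966% (lower) of all tested genes, and no member was among the lower ones.

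**Figure D4:**
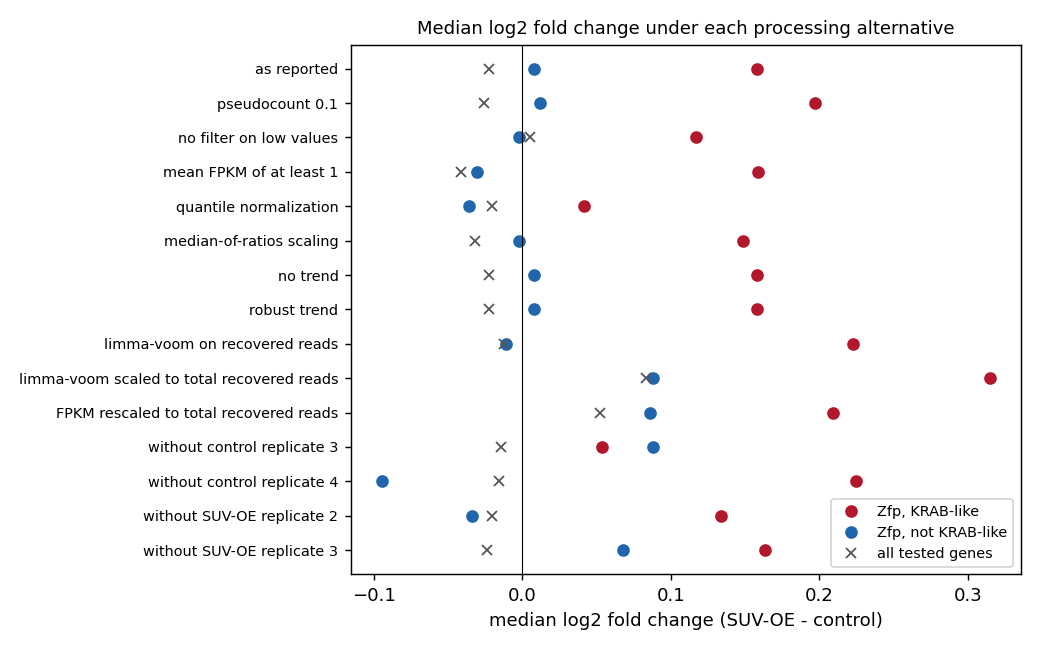
Median log2 fold change (x axis, SUV-OE minus control) of the KRAB-like members (red), the other members (blue) and all tested genes (crosses) under each processing alternative (y axis). The red point stays to the right of 0 in every setting shown, from 0.04 with quantile normalization to 0.32 with limma-voom scaled to total reads, and it lies to the left of the blue point without control replicate 3.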

How the data were processed

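The authors prepared TruSeq RNA v2 libraries, aligned reads to mm10 with TopHat2 and deposited FPKM values for 4 libraries of RNA-seq batch 2, which their methods credit to Cufflinks. The annotation release is not given in the sources used here. Expression was compared as log2(FPKM + 1) with limma 3.58.1 in R 4.3.3 (intensity trend, group as the only term, Benjamini-Hochberg adjustment) for the 13736 genes that reached a mean of 0.5 FPKM. Fold changes on this scale understate those of low genes. DEGs required adjusted p below 0.05 and a log2 fold change of 1 or more in size.

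Whole reads were recovered from the FPKM at the GENCODE M21 exon length for 78.5% of genes (tolerance 0.01), against 0.393% with shuffled lengths, and at another length for 4927 genes. The authors' library factor was below the recovered reads in each library. The reads entered limma-voom as an alternative. Intervals were not computed, and the floor of 3 reads covers counting error only.

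Symbols, positions, the KRAB-like stretch (8 of 10 positions), the SCAN-like stretch (9 of 12) and C2H2 fingers came from GENCODE M21 and the longest open reading frame of its transcripts, in place of the RefSeq proteins first planned. Shared 100-base words were counted against all other genes' transcripts. Motifs were searched on both strands of RefSeq promoters, and the NRF1-type, ZBTB33-type and ZNF143-type letters were shortened to 9 after counts with longer forms had been seen. They also included YY1-type AAGATGG (6.34% of member and 6.79% of all promoters) and ZBTB33-type CTCGCGAGA (0.704% and 1.32%). No promoter entry was found for Zfp40, Zfp51, Zfp87, Zfp114, Zfp366, Zfp369, Zfp446, Zfp493, Zfp524, Zfp568, Zfp574, Zfp646, Zfp865, Zfp870, Zfp934 and Zfp960.

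The members and gene lists were chosen with earlier results of these data known. Genes were named by a rule: DEGs, the 12 largest positive and 12 largest negative differences without overlap, the 6 highest mean FPKM, members with a known role, and the enzymes around Suv39h1. Other genes were named after their values were seen. In simulated data for SUV-OE against control (13152 genes), limma recovered 86.6% of 97 genes seeded with a 3-fold change and 93.5% of 93 with a 5-fold change, in the seeded direction, and it called 18 unchanged genes. The simulated reads had a fixed dispersion and no shift between the libraries of a group beyond depth. No change below 3-fold was seeded, so these shares do not give the power for the small differences of the members. Alternatives were another pseudocount (0.1), filter, normalization, variance model and threshold, limma-voom, and leaving out each library. Figures were drawn with matplotlib 3.10.9.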

Additional observations from a re-analysis of the deposited data

How the results depend on the processing

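With 2 libraries per group, single low-expressed genes could not pass the correction unless their change was large. No paired analysis was possible because fewer than 2 replicate numbers occur in both groups. FPKM rescaled to total recovered reads and limma-voom scaled to total recovered reads were chosen after seeing the data. Over all genes the 168 DEGs became 0 without a filter on low values (4177 genes with unadjusted p below 0.05), 342 at an adjusted p below 0.1, 668 with limma-voom and 772 with limma-voom scaled to total reads, and 0 to 0 when a library was left out (1166 to 3877 genes with unadjusted p below 0.05). In those fits the lone library of a group was assumed to vary like the other group. Upregulated members went from 0 to 2 with limma-voom scaled to total reads. Members above both controls numbered 55, and 64 to 90 when a library was left out (33.0% to 40.3% of all genes), with 90 without control 4. Members below both controls numbered 14, and became 22 with quantile normalization (27.0% of all genes), 7 with rescaled FPKM (19.8%) and 22 to 41 when a library was left out (36.4% to 43.7%), with 41 without control 3, 30 without control 4, 24 without SUV-OE 2 and 22 without SUV-OE 3. Fewer libraries to clear makes both counts larger by construction. With quantile normalization 37 members lay above (24.3% of all genes) and with rescaled FPKM 72 (32.6%).

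The median log2 fold change of the members (0.11) was 0.034 with quantile normalization, 0.19 with limma-voom, 0.28 with limma-voom scaled to total reads, 0.18 with rescaled FPKM and 0.07 to 0.17 without a library. On chromosome 7 (0.07) it was 0.11 with a pseudocount of 0.1, 0.015 with quantile normalization, 0.12 with limma-voom, 0.22 with limma-voom scaled to total reads, 0.14 with rescaled FPKM and 0.050 to 0.13 without a library. On chromosome 13 (0.18) it was 0.29 with a pseudocount of 0.1, 0.064 with quantile normalization, 0.32 with limma-voom, 0.41 with limma-voom scaled to total reads and 0.073 to 0.25 without a library. On chromosome 17 (0.11) it was 0.25 with limma-voom scaled to total reads and 0.014 to 0.22 without a library, the lowest being without control 3. For KRAB-like members (0.16) it was 0.32 with limma-voom scaled to total reads. The cause of these shifts was not tested. The named members include the largest positive and negative differences without overlap, and leaving out a library cannot reverse the sign of such a difference. No member was a DEG in the main fit, and fits without a library leave a lone library in a group. Agreement between settings was therefore partly fixed by the choice of members, and agreement on the threshold in those fits says little. Of 489 values for 35 tested named members, 481 kept their direction and their side of the threshold and 6 changed sign. These were Zfp36 (-1.56 to 0.46 without a library), Zfp367 (-0.23 to 0.020) and Zfp455 (-0.069 to 0.47), each changed without control 3, Zfp598 without control 4 (-0.053 to 0.28), and Zfp346 with quantile normalization (-0.040) and without SUV-OE 2 (-0.030 to 0.072 without a library).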
